A study of Mus musculus with 8 samples.

Results

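The genes that flank Dlg1, the mouse gene for SAP97, were examined in RNA-seq counts from the hippocampus of male mice, with 4 libraries from controls and 4 from SAP97-cKO animals, each from a separate mouse. A gene belonged to the window when the deposited table placed its start on chromosome 16 between 29 and 34 Mb of mm10 (GRCm38), with Dlg1 itself left out. This gave 69 of the 25834 genes in the table, 53 of them protein-coding. SAP97-cKO mice were Nestin-cre+/-; SAP97fl/fl animals, in which Cre recombinase under the Nestin promoter acts in neural precursors and the cells derived from them, on floxed Dlg1 alleles. The controls were littermates that carried Nes-cre+/-, that were SAP97fl/fl or that were wild-type, but the sources used here do not tie a genotype to each control library. Nor do they give the age of the sequenced mice. Every SAP97-cKO mouse has 2 floxed copies of Dlg1, whereas an unknown number of control copies are floxed. Every SAP97-cKO mouse also carries Nestin-cre, as does an unknown number of the controls. For a neighbouring gene, losing SAP97 therefore cannot be told apart from effects of the floxed allele, of sequence inherited with it or of Nestin-cre.

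The window holds the mouse counterparts of the genes in the recurrent human 3q29 deletion, which removes 1 copy of DLG1 together with its neighbours and is associated with schizophrenia and intellectual disability. Among those neighbours are the kinase gene Pak2, the ubiquitin ligase gene Fbxo45, the transferrin receptor gene Tfrc and the ketone body enzyme gene Bdh1. A floxed allele can in principle alter the expression of genes near it, so the comparison asks whether the neighbours of Dlg1 moved when Dlg1 did.

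Libraries held 37388177 to 37426572 counts after the authors had resampled them to a common depth, so these totals do not give the depth sequenced. Genes were tested with edgeR's quasi-likelihood test after its filter on low counts, libraries were scaled by TMM, and p-values were adjusted by the Benjamini-Hochberg method over all 16251 genes tested. The threshold was the FDR of 0.25 that the paper uses. The values below are TMM-normalized counts unless a sentence says otherwise, log2 fold changes are SAP97-cKO over control, and intervals are 95% intervals from the same fit. All 10 neuron markers, which include the hippocampal genes Prox1 and Neurod6, had enough counts to be tested, with 3 higher and 0 lower at an unadjusted p under 0.05. Of 8 astrocyte markers, 2 were higher and 0 lower there. Among all genes tested, 4.73% were higher and 7.01% lower there.

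Of the 69 genes, 49 passed the filter, 46 of them protein-coding. The other 20 had between 1 and 54 reads over all 8 libraries. They were the protein-coding genes Lrrc15, Smco1, Tm4sf19, Zdhhc19, Muc4, Muc20 and Muc13, the non-coding genes Gm26834, Gm26562, Gm15742, Gm15729, Tnk2os and Gm15829, and the pseudogenes 1700007E05Rik, Gm15703, Gm15696, Gm15694, Hmgb1-ps6, Gm20056 and Gm6611. Nothing about a change with genotype can be said for these at this depth.

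Promoter sequences from RefSeq (GRCm38.p6) were found for 53 of the 69 genes, 44 of them tested. The stretches of 3 genes are shown, picked with the values known. Apod had the smallest p of the window, Bdh1 lies between Apod and Dlg1, and Tfrc was higher in every SAP97-cKO library. Whether a promoter feature goes with a change was not tested. Each line gives the 250 bases before the RefSeq start, 5′ to 3′ on the strand of the gene, in which capitals would mark a GC box (GGGCGG on either strand) or the TATA box letters (TATAAA on either strand).
Apod, minus strand, chr16:31314809-31315058: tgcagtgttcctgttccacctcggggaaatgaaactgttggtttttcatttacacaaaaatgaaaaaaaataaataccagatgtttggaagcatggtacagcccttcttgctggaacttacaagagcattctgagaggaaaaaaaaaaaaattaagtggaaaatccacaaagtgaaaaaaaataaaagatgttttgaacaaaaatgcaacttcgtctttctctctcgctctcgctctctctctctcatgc
Bdh1, plus strand, chr16:31422047-31422296: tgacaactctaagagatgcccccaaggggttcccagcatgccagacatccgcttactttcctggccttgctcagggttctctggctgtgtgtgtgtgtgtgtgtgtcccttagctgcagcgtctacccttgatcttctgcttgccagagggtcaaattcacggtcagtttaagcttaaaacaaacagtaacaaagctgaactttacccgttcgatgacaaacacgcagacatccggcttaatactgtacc
Tfrc, plus strand, chr16:32608646-32608895: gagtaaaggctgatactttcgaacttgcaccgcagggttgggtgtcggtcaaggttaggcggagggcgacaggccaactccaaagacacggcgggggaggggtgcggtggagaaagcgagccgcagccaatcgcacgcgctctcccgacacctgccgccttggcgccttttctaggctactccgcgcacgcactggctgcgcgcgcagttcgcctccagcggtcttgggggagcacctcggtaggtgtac
None of the 3 stretches holds either motif. The Apod stretch had 4 CpG dinucleotides and a GC content of 36.4%, the Bdh1 stretch had 7 and 49.6%, and the Tfrc stretch had 25 and 64.8%. A GC box was present in 22 of the 44 tested members with an entry (50%) and in 54.9% of the promoter entries of all tested genes. The TATA box letters were present in 2 of the 44 (4.55%) and in 6.69% of the entries of all tested genes. The median CpG count was 14.5 and 14, respectively, so that by these letters the promoters of the window were like those of other genes tested.

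Dlg1 was checked first. Dlg1 (ENSMUSG00000022770, plus strand, chromosome 16, 31663443 to 31875129) had 4127, 4549, 3982 and 4690 counts in control replicates 1 to 4 and 2353, 3064, 2143 and 2008 in SAP97-cKO replicates 1 to 4. The groups were apart, with all SAP97-cKO libraries lower (p = 0.0286 in a two-sided exact permutation test, which cannot give a smaller p with 4 libraries a group). The mean fell to 55.2% of control, a log2 fold change of -0.86 (interval -1.13 to -0.58, adjusted p = 0.143 from edgeR). These counts cover the whole gene and do not show how complete the knockout was. The paper reports a much larger fall in reads on an exon of SAP97, and it checked each sequenced animal by western blot. The call at the FDR threshold rested on single libraries, but Dlg1 was lower whichever library was left out (-0.9999 to -0.78). Leaving out control replicate 2 gave -0.83 (unadjusted p = 1.60e-04, adjusted p = 0.424 from edgeR). Leaving out SAP97-cKO replicate 3 gave -0.80 (unadjusted p = 2.12e-04, adjusted p = 0.524 from edgeR). Leaving out SAP97-cKO replicate 4 gave -0.78 (unadjusted p = 1.27e-04, adjusted p = 0.346 from edgeR). In each of these fits 0 of all genes tested passed the threshold, so the loss of the call was not particular to Dlg1.

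None of the 49 neighbours passed the FDR of 0.25 in edgeR, where 0.295% of all genes tested did, 0.283% lower and 0.0123% higher in SAP97-cKO. At an unadjusted p under 0.05 there were 4, all lower in SAP97-cKO (8.16%), against 11.7% of all genes tested, 7.01% lower and 4.73% higher. At the FDR of 0.25, limma-voom called 1 of the 49 (Apod, 2.04%), where it called 0.308% of all genes tested. Apod is also on the list of genes that the paper called at this FDR. DESeq2 called 3 (Apod, Itgb5 and 4632428C04Rik, 6.12%), where it called 5.78% of all genes tested. Normalized counts of the groups did not overlap for 3 of the 49 (6.12%), Apod, Lsg1 and Tfrc, as for 6.25% of all genes tested, 3.47% lower and 2.78% higher. The median log2 fold change of the 49 was -0.03, and that of all genes tested was -0.01. The quartiles of the 49 were -0.15 and 0.05, and 31 were below 0, where 8574 of all 16251 genes tested were below 0. The other 442 tested genes of chromosome 16 had a median of -0.02 and 245 below 0, with 9.95% at an unadjusted p under 0.05 and 4.98% without overlap. The count at the FDR of 0.25 also rested on single libraries. Leaving out control replicate 1 made it 6 (Apod, Itgb5, Iqcg, 4632428C04Rik and Pcyt1a lower, Tnk2 higher), when 10.2% of all genes tested passed, and leaving out SAP97-cKO replicate 1 made it 2 (Apod and Itgb5), when 4.32% passed.

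The precision of the fit set how large a change could have gone unseen. For 38 of the 49 genes the 95% interval lay within a 1.5-fold change in either direction, and for 44 it lay within a 2-fold change. The intervals of Apod, 4632428C04Rik, Iqcg and Slc12a8 reached a halving, and that of the non-coding gene 1700007L15Rik reached a doubling. Slc12a8, a solute carrier gene, and 1700007L15Rik had few counts and overlapping groups, with log2 fold changes of -0.44 (adjusted p = 0.536 from edgeR) and 0.28 (adjusted p = 0.749 from edgeR).

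**Figure D1:**
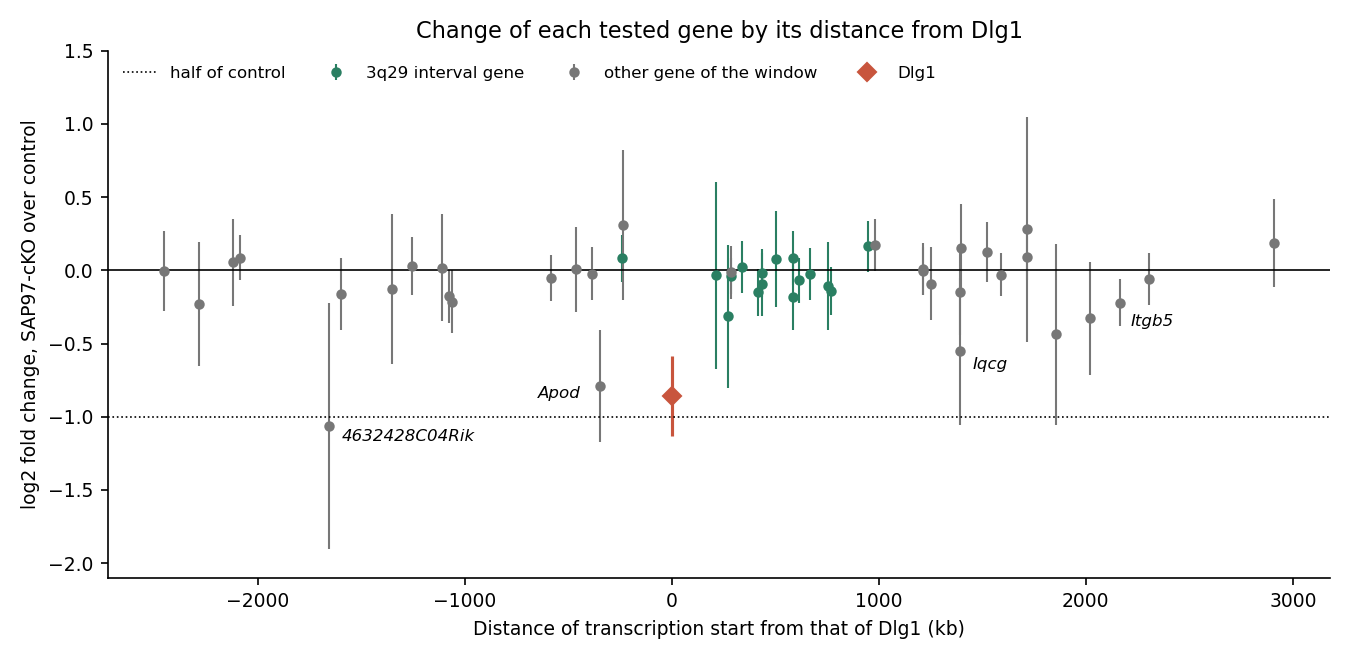
Log2 fold change (SAP97-cKO over control, y axis) of Dlg1 and the 49 tested genes of the window against the distance of their transcription start from that of Dlg1 in kb (x axis). Points are edgeR estimates, bars are 95% intervals, and the dotted line marks a log2 fold change of -1; Dlg1 lies at -0.86 while most neighbours on either side lie close to 0.

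Changes were also summarised by distance from Dlg1. On the low-coordinate side, the 5 tested genes within 0.5 Mb of the start of Dlg1 had a median log2 fold change of 0.01 and ran from -0.79 (Apod) to 0.31 (Gm15743). On the high-coordinate side, the 8 genes within 0.5 Mb had a median of -0.04 and ran from -0.31 to 0.02. Of these 8, 7 were below 0 and 0 had an unadjusted p under 0.05, beside 8574 of 16251 and 11.7% of all genes tested. From 0.5 to 1 Mb on that side, 9 genes had a median of -0.03. From 1 to 2 Mb the medians were -0.16 over 7 genes on the low side and -0.0035 over 11 genes on the high side. Beyond 2 Mb they were 0.03 over 4 genes and -0.14 over 4 genes. At the edges of the window the phospholipase gene Hrasls, the first member, was at -0.0026, and the guanine nucleotide exchange factor gene Kalrn, the last, was at 0.19 (interval -0.12 to 0.49). Just outside it, Mb21d2 was at -0.01 and Ropn1 had too few reads to be tested.

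The direct neighbours of Dlg1 on both sides were measured in every library. Bdh1 (ENSMUSG00000046598, plus strand, 31422280 to 31458901), a mitochondrial enzyme that interconverts ketone bodies, had 1582, 1830, 1574 and 1671 counts in control replicates 1 to 4 and 1666, 1699, 1837 and 1843 in SAP97-cKO replicates 1 to 4. The groups overlapped, with a log2 fold change of 0.08 (interval -0.08 to 0.24, adjusted p = 0.644 from edgeR). Mfi2, also named Meltf (ENSMUSG00000022780, plus strand, 31878810 to 31899020), encodes an iron-binding protein of the cell surface and was the least abundant tested gene per kb of exon in controls. Its counts ran from 18.0 to 35.9 in controls and from 22.3 to 36.6 in SAP97-cKO. The log2 fold change was -0.03 with a wide interval of -0.67 to 0.60. Gm15743, a non-coding gene that lies inside Bdh1 on the other strand, was at 0.31 (interval -0.20 to 0.82). The sources used here do not say whether reads were counted by strand, so it is not known how far reads of Gm15743 and Bdh1 were kept apart.

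Of the 20 listed genes of the 3q29 interval other than Dlg1, 19 had a row in the table analysed here, and Slc51a had none. Of these, 16 were tested, and Smco1, Tm4sf19 and Zdhhc19 had too few reads. None of the 16 passed the FDR of 0.25 in edgeR, limma-voom or DESeq2 with all libraries. In edgeR with TMM and no covariate 0 had an unadjusted p under 0.05. Without control replicate 1, Pcyt1a passed that FDR (adjusted p = 0.249 from edgeR), when 10.2% of all genes tested did. Under 1 or more other edgeR settings Pak2, Pcyt1a, Pigz and Wdr53 were lower and Nrros higher at an unadjusted p under 0.05. In those settings 4.26% to 16.6% of all genes tested reached it. Their median log2 fold change was -0.04, and the range ran from -0.31 (Pigz) to 0.16 (Tfrc). There were 11 below 0 and 5 above, beside 8574 below and 7677 above among all genes tested. The SAP97-cKO level ran from 80.4% to 112% of control. No interval of the 16 reached a halving, and the lowest bound was 57.2% of control for Pigz. The intervals of 14 of the 16 lay within a 1.5-fold change, with Pigz and Mfi2 as the exceptions.

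**Figure D2:**
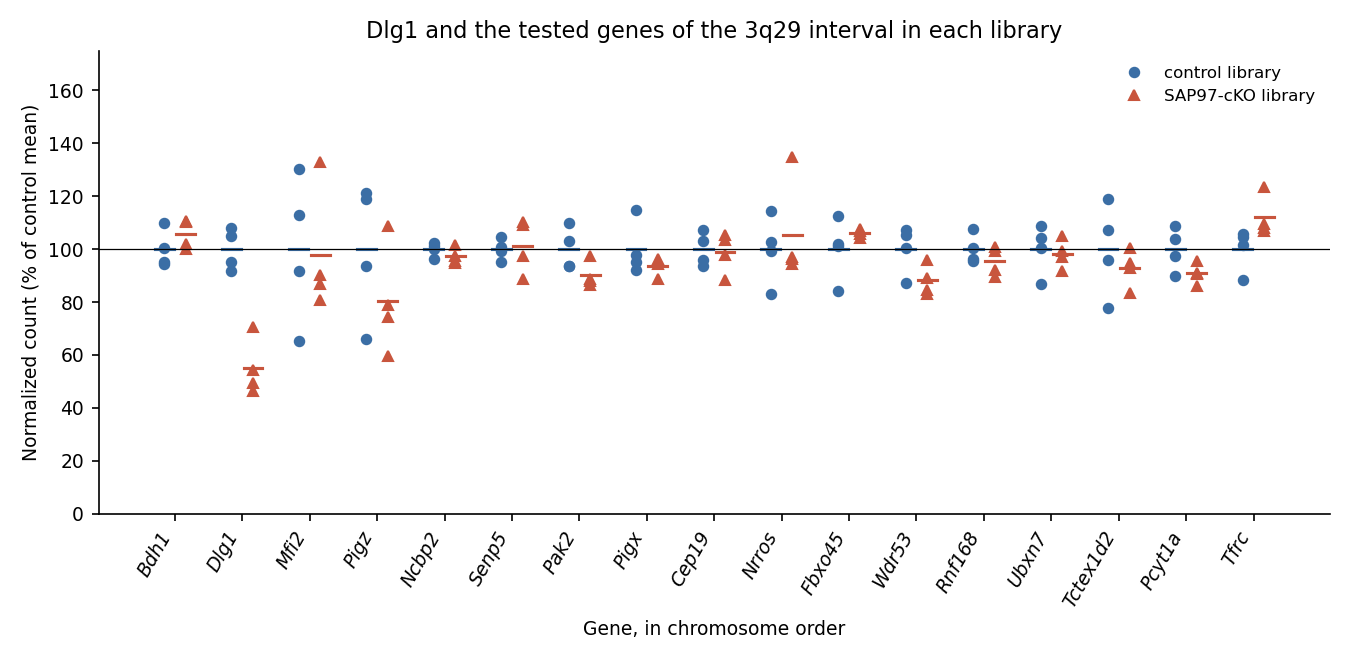
TMM-normalized counts of Bdh1, Dlg1 and the other tested genes of the 3q29 interval, in chromosome order (x axis), as percent of the mean of the 4 control libraries (y axis). Each point is 1 library and short bars are group means; the 4 SAP97-cKO libraries of Dlg1 lie below all of its control libraries, whereas those of the other genes lie between 59.8% and 135% and overlap the controls except for Tfrc.

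Pak2 (ENSMUSG00000022781, minus strand, 32016290 to 32079342) encodes a kinase that is activated by the GTPases Rac and Cdc42 and acts on the actin cytoskeleton. Its counts were 2734, 2910, 2482 and 2482 in control replicates 1 to 4 and 2585, 2290, 2350 and 2336 in SAP97-cKO replicates 1 to 4. Only SAP97-cKO replicate 1 reached the control range. The log2 fold change was -0.15 (interval -0.31 to 0.01, adjusted p = 0.445 from edgeR). Without scaling of the libraries the groups of Pak2 did not overlap, and its unadjusted p from edgeR was under 0.05. Under that setting 6.77% of all genes tested did not overlap and 12.9% had an unadjusted p under 0.05. Of 13 listed genes outside the window that act with group I PAK kinases, 0 passed the FDR of 0.25, 2 were lower at an unadjusted p under 0.05 and 0 were higher there, with a median log2 fold change of 0.03, and among all genes tested 7.01% were lower and 4.73% higher there. The 2 were the adaptor gene Nck1 at -0.25 (adjusted p = 0.347 from edgeR) and the LIM kinase gene Limk1 at -0.17 (adjusted p = 0.368 from edgeR). The other group I kinases, Pak1 and Pak3, were at 0.06 and 0.15.

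Tfrc (ENSMUSG00000022797, plus strand, 32608920 to 32632794), the receptor that takes up iron-loaded transferrin, was the single 3q29 gene whose groups did not overlap. It had 4984, 5898, 5968 and 5725 counts in control replicates 1 to 4 and 6186, 6095, 6032 and 6967 in SAP97-cKO replicates 1 to 4. All 4 SAP97-cKO libraries were above the controls (p = 0.0286, two-sided exact permutation test), although the highest control and the lowest SAP97-cKO library were close. The log2 fold change was 0.16 (interval -0.01 to 0.34, adjusted p = 0.440 from edgeR), and without scaling of the libraries the groups overlapped. Of 14 listed genes of iron handling outside the window, 0 passed the FDR of 0.25, and 1 was lower and 0 higher at an unadjusted p under 0.05, with a median of -0.07, beside the 7.01% lower and 4.73% higher among all genes tested. The 1 was Trf, the transferrin gene, at -0.63 (adjusted p = 0.331 from edgeR), which oligodendrocytes express.

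The ubiquitin and SUMO genes of the window were close to control. Fbxo45, the substrate receptor of a ubiquitin ligase at synapses, had 3355, 3042, 3011 and 2514 counts in control replicates 1 to 4 and 3183, 3151, 3110 and 3210 in SAP97-cKO replicates 1 to 4. Its log2 fold change was 0.09 (interval -0.10 to 0.27). The SAP97-cKO libraries lay inside the control range. Rnf168, a ubiquitin ligase of the DNA damage response, was at -0.07, Ubxn7, an adaptor of the segregase p97, was at -0.03, and Senp5, a SUMO protease, was at 0.02. Of these, Senp5 lies partly over Ncbp2 on the other strand and Ncbp2, a subunit of the nuclear cap-binding complex, was at -0.04.

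Among the lipid genes of the interval, Pcyt1a, the rate-limiting enzyme of phosphatidylcholine synthesis, was at -0.14 (interval -0.30 to 0.02), and the GPI anchor genes Pigx and Pigz were at -0.10 and -0.31. The cilium and centrosome genes Cep19 and Tctex1d2 were at -0.02 and -0.11. Nrros, a microglial regulator of TGF-beta, was at 0.08 (interval -0.25 to 0.40), and the 8 microglia markers had summed levels of 398 to 535 CPM in controls and 379 to 480 CPM in SAP97-cKO. Wdr53, a WD-repeat gene, was at -0.18 (interval -0.40 to 0.04).

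Among the tested genes, 6 pairs of neighbours start within 1 kb of each other on opposite strands, and their members are given side by side. Fbxo45 and Wdr53, 69 bases apart, were at 0.09 and -0.18. Pigx and Cep19, 60 bases apart, were at -0.10 and -0.02, and 0610012G03Rik and Ncbp2, 19 bases apart, were at -0.01 and -0.04. Rubcn and Fyttd1 were at 0.01 and -0.0035, and 1700007L15Rik and Zfp148 were at 0.28 and 0.09. Iqcg and Rpl35a, 235 bases apart, were at -0.55 and -0.15. Rpl35a encodes a ribosomal protein, and its counting could be split with near-identical pseudogene copies.

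Apod had the smallest p of the window and a shift close in size to that of Dlg1. Apod (ENSMUSG00000022548, minus strand, 31296192 to 31314808) encodes apolipoprotein D, a secreted lipid carrier that oligodendrocytes and fibroblasts of the meninges and vessels make. Its counts were 4931, 6442, 5549 and 6176 in control replicates 1 to 4 and 4500, 3103, 3433 and 2317 in SAP97-cKO replicates 1 to 4. The groups did not overlap (p = 0.0286, two-sided exact permutation test), with SAP97-cKO replicate 1 nearest to the controls. Control libraries averaged 5775 ± 675 counts (SD, n = 4). The SAP97-cKO average of 3338 ± 905 (SD, n = 4) was 57.8% of that. The log2 fold change of -0.79 (interval -1.17 to -0.41, adjusted p = 0.271 from edgeR) did not pass the FDR of 0.25. The paper, with its own limma-voom fit, lists Apod among the genes it called at that FDR. In edgeR, Apod did pass when control replicate 1 (adjusted p = 0.179 from edgeR) or SAP97-cKO replicate 1 (adjusted p = 0.154 from edgeR) was left out. Over all libraries left out in turn the adjusted p ran up to 0.646. Per kb of exon it was the most abundant tested gene of the window in controls, with 2241 counts per kb against 1473 for Rpl35a and 1252 for Cep19. In SAP97-cKO it had 1295 counts per kb and Rpl35a had 1327. The start of Apod lies 349 kb from that of Dlg1, and Bdh1, which lies between them, was at 0.08.

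**Figure D3:**
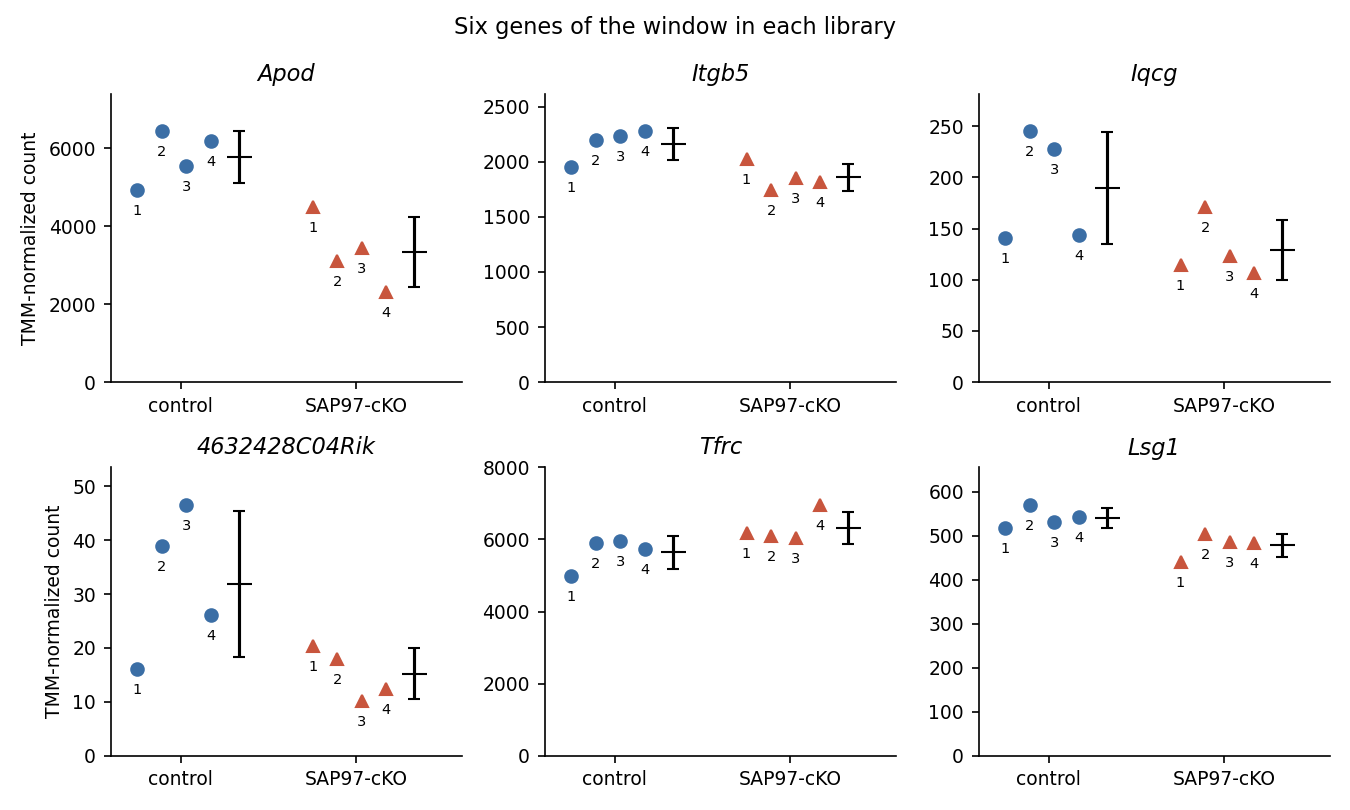
TMM-normalized counts (y axis, from 0) of Apod, Itgb5, Iqcg, 4632428C04Rik, Tfrc and Lsg1 in the 4 control and 4 SAP97-cKO libraries (x axis). Points carry the replicate number, and bars are the group mean and SD; the groups are apart for Apod, Tfrc and Lsg1 and overlap for the other genes.

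Markers of other cells moved beside Apod. All 10 oligodendrocyte markers were below 0, 7 of them at an unadjusted p under 0.05 and 0 past the FDR of 0.25, and their summed level ran from 6029 to 9947 CPM in controls and from 4500 to 8298 CPM in SAP97-cKO. All 14 meningeal fibroblast markers were below 0, 11 of them at an unadjusted p under 0.05 and 6 past the FDR of 0.25. Those 6 are also on the paper's list of genes called from these libraries, so their count is not independent of it. Summed levels were 332 to 664 CPM in controls and 182 to 348 CPM in SAP97-cKO. They weigh most on Igf2 (-0.78), Igfbp2 (-0.68) and Dcn (-0.0076), none at an unadjusted p under 0.05. Igf2 and Igfbp2 were highest in control replicate 2, as were the choroid plexus markers given below. Among all genes tested, 7.01% were lower at an unadjusted p under 0.05 and 0.283% were lower past the FDR of 0.25. No marker of either list was at 0 in any library. In bulk tissue, fewer cells of a type and less RNA per cell cannot be told apart. SAP97-cKO replicate 1, the SAP97-cKO library highest in Apod, had 8298 CPM of the oligodendrocyte markers, against 4500 to 5048 CPM in the other SAP97-cKO libraries. With the mean level of the oligodendrocyte markers as a covariate, the log2 fold change of Apod was -0.46 (standard error 0.12, unadjusted p = 0.00514, adjusted p = 1.00 from edgeR). With the meningeal fibroblast markers as a covariate it was -0.51 (standard error 0.34, adjusted p = 0.973 from edgeR). Neither covariate left any gene past the FDR of 0.25, Dlg1 included, which was at -0.80 and -0.43.

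**Figure D4:**
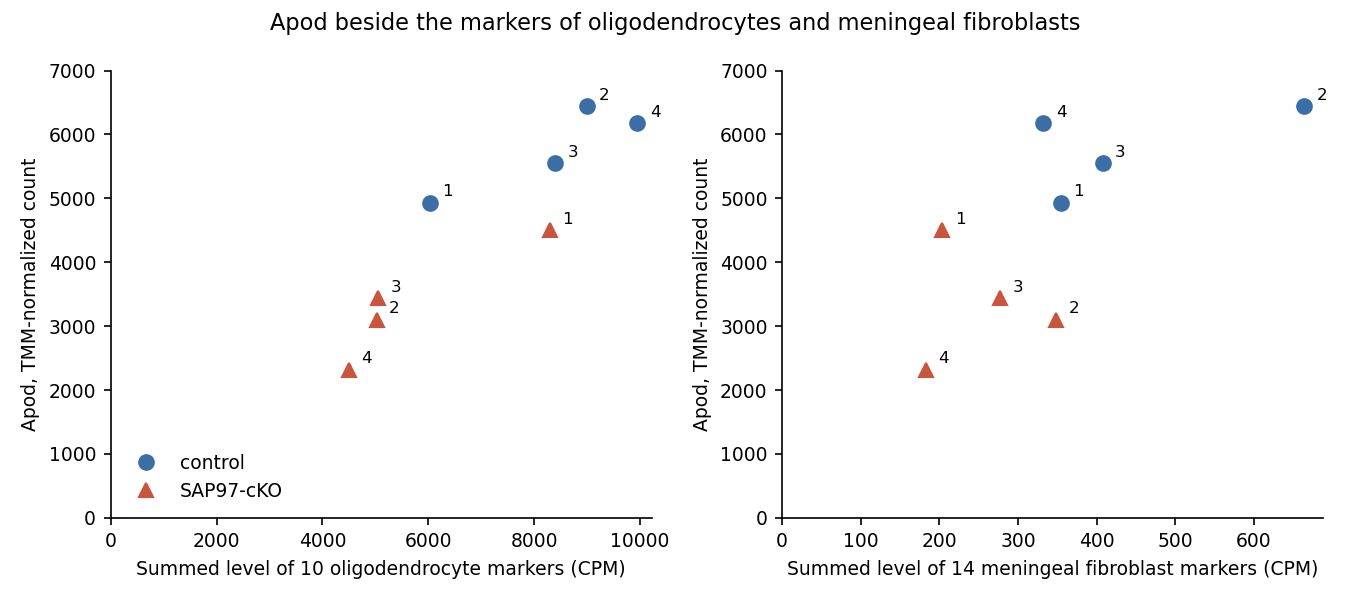
TMM-normalized counts of Apod (y axis) against the summed level, in CPM, of 10 oligodendrocyte markers (left) and 14 meningeal fibroblast markers (right) in each library. Circles are control and triangles SAP97-cKO libraries with their replicate number; SAP97-cKO replicate 1 lies among the controls in oligodendrocyte markers and below them in Apod.

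The other genes at an unadjusted p under 0.05 lay more than 1 Mb from Dlg1. Itgb5 (ENSMUSG00000022817, plus strand, 33829665 to 33949338), an integrin subunit, had 1953, 2198, 2232 and 2277 counts in control replicates 1 to 4 and 2026, 1742, 1851 and 1813 in SAP97-cKO replicates 1 to 4. The groups overlapped through control replicate 1 and SAP97-cKO replicate 1, and the log2 fold change was -0.22 (interval -0.38 to -0.06, adjusted p = 0.348 from edgeR). It was at -0.10 with the oligodendrocyte covariate, -0.29 with the meningeal fibroblast covariate and -0.23 with the choroid plexus covariate, with unadjusted p-values from edgeR of 0.186, 0.0872 and 0.0208.

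Iqcg (ENSMUSG00000035578, minus strand, 33012683 to 33056218), a gene of motile cilia, had 141, 245, 227 and 144 counts in control replicates 1 to 4 and 114, 171, 124 and 107 in SAP97-cKO replicates 1 to 4. Control replicates 2 and 3 were the highest, and the log2 fold change was -0.55 (interval -1.05 to -0.05, adjusted p = 0.399 from edgeR). The 10 choroid plexus markers, which mark a ciliated epithelium beside the hippocampus, summed to 1833, 9949, 5767 and 466 CPM in control replicates 1 to 4 and to 986, 3307, 1863 and 243 CPM in SAP97-cKO replicates 1 to 4. All 10 were below 0, with 0 at an unadjusted p under 0.05 and none at 0 in any library, and in both groups the libraries with the most of these markers also had the most Iqcg. With the meningeal fibroblast covariate, which did not overlap between the groups, Iqcg turned to 0.11. With a choroid plexus covariate Iqcg was at -0.30. Iqcg also lies partly over Lrch3 on the other strand, and Lrch3 was at -0.09.

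4632428C04Rik (ENSMUSG00000097184, plus strand, 30008667 to 30021430), a long non-coding RNA gene before the Notch target Hes1, had few counts. They were 16, 38.9, 46.6 and 26.2 in control replicates 1 to 4 and 20.4, 17.9, 10.1 and 12.5 in SAP97-cKO replicates 1 to 4. Control replicate 1 lay within the SAP97-cKO range, and the log2 fold change was -1.06 (interval -1.90 to -0.23, adjusted p = 0.368 from edgeR). Hes1 itself was at -0.16 (adjusted p = 0.568 from edgeR). Lsg1, a GTPase of ribosome assembly, ran from 517 to 571 counts in controls and from 441 to 504 in SAP97-cKO without overlap (p = 0.0286, two-sided exact permutation test), a log2 fold change of -0.18 (adjusted p = 0.426 from edgeR).

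The remaining members showed no difference past the threshold either. Fam43a was at -0.21 (adjusted p = 0.426 from edgeR), the platelet glycoprotein gene Gp5 was at -0.13, and Tmem44, a transmembrane protein gene, was at 0.02. Xxylt1, a xylosyltransferase gene of Notch glycosylation, was at -0.05, the metallopeptidase gene Lmln at 0.16 and the zinc finger gene Zfp148 at 0.09. The mitochondrial fusion gene Opa1 was at 0.09, the cation transporter genes Atp13a3, Atp13a4 and Atp13a5 were at 0.03, 0.05 and -0.23, and the kinase gene Tnk2 was at 0.18. The endosomal sorting gene Snx4 was at -0.03, the oxysterol-binding protein gene Osbpl11 at 0.13, the pyrimidine synthesis gene Umps at -0.06 and the endothelial and endocardial gene Heg1 at -0.33 (adjusted p = 0.475 from edgeR). The 8 endothelial markers had summed levels of 223 to 248 CPM in controls and 162 to 264 CPM in SAP97-cKO, with 7 of 8 below 0 and 0 at an unadjusted p under 0.05. Acap2 and Ppp1r2, a GTPase-activating protein and a phosphatase inhibitor between Xxylt1 and Apod, were at 0.01 and -0.02.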

How the data were processed

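RNA-seq of 4 control and 4 SAP97-cKO hippocampi was analysed from 1 gene table. Per the labels and the methods, STAR 2.5.3a was the authors' aligner and mm10 (GRCm38.p5) their build, and PORT brought libraries to a common depth by resampling, so that equal totals say nothing of the depth sequenced. The deposited values are whole-number counts per Ensembl gene. The authors' own limma-voom fold change, p-value and q-value columns were not used. The members and lists were chosen with earlier results of these data known.

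Genes were kept with filterByExpr of edgeR 4.0.16 (minimum count 10, minimum total 15; 9583 of 25834 removed), scaled by TMM and tested by its quasi-likelihood test in R 4.3.3. Adjustment was by Benjamini-Hochberg over every gene tested. The standard error is the log2 fold change divided by the square root of F. Single values were compared by exact permutation over 70 assignments of libraries. No 2 of the 8 libraries agreed within sampling noise (their chi-square divided by the number of genes ran from 9.68 to 72.6). P-values measure the spread between these mice. Coordinates and exon lengths are from GENCODE M21, matched for all 69 members; the table starts 57 of them a fixed distance earlier. The test was checked on simulated counts.

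Named genes were Dlg1, members at an FDR under 0.25 or an unadjusted p under 0.05, tested genes of the 3q29 interval, the 3 nearest on each side, the 3 highest and the lowest per kb, and those without overlap; others were named after their values were seen. Alternatives were limma-voom (limma 3.58.1), DESeq2 1.42.0, other scalings and filters, the replicate block, marker covariates and each library left out. Plots used matplotlib 3.10.9.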

Additional observations from a re-analysis of the deposited data

Results flagged for a closer look

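Of 50 groups of 4 libraries compared, those of Dlg1 and the named members among them, 4 had a library far from the other 3 by Dixon's criterion, which chance meets in about 1 of 20 groups. Control replicate 4 was the highest control in 0610012G03Rik (1527 normalized counts) and in Rpl35a (6959 normalized counts). SAP97-cKO replicate 1 was the highest of its group in Nrros (378 normalized counts), and SAP97-cKO replicate 4 in Tfrc (6967 normalized counts).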

How the results depend on the processing

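The count of members past the FDR of 0.25, 0 in edgeR with TMM, was 1 (Apod) with limma-voom, without scaling, without the filter and with the replicate block. Of all genes tested, 0.308%, 0.585%, 0.403% and 1.58% passed under these settings. The count was 3 (Apod, Itgb5 and 4632428C04Rik) with DESeq2, where 5.78% of all genes passed. Leaving out 1 library gave 0 to 6, where 0% to 10.2% of all genes passed. The count at an unadjusted p under 0.05, 4 of 49, was 8 (16.3%) without scaling, where 12.9% of all genes passed. It was 1 (Tmem44, higher, 2.04%) with the meningeal fibroblast covariate, where 4.21% of all genes passed. Within 1 Mb of Dlg1 it was 1 of 23 (Apod, 4.35%), beside 11.7% of all genes. With 1 library left out it was 2 to 8, where 7.07% to 16.6% of all genes passed. The count without overlap, 3, was 5 (10.2%) without scaling, where 6.77% of all genes did not overlap, and 3 to 9 with 1 library left out, where 9 (18.4%) came without control replicate 1 and 15.3% of all genes did not overlap. The log2 fold change of Dlg1 was -0.43 with the meningeal fibroblast and -0.80 with the oligodendrocyte covariate, neither past the threshold, and -0.9999 to -0.78 with 1 library left out. The meningeal fibroblast covariate did not overlap between the groups, so the fits with it can hardly separate these markers from genotype. The causes were not tested.

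Of the 49 tested members, 27 turned direction under 1 or more alternatives, 10 of the 24 that the rule for named genes takes and 17 of the other 25. Among the 24, those that turned with all libraries were Mfi2 (0.12, 0.40 and 0.083 with the meningeal fibroblast, oligodendrocyte and choroid plexus covariates), Pigz (0.20, oligodendrocyte), Senp5 (-0.026 without scaling and -0.11, oligodendrocyte), Nrros (-0.060, meningeal fibroblast), Ubxn7 (0.014, choroid plexus), Tctex1d2 (0.067, oligodendrocyte), Iqcg (0.11, meningeal fibroblast) and Rpl35a (0.025, oligodendrocyte). With 1 library left out, log2 fold changes ran from -0.21 to 0.12 for Mfi2, -0.050 to 0.044 for 0610012G03Rik, -0.022 to 0.084 for Senp5, -0.047 to 0.038 for Cep19, -0.056 to 0.15 for Nrros, -0.088 to 0.029 for Ubxn7 and -0.21 to 0.024 for Rpl35a. The choroid plexus covariate was chosen after seeing the data.

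Libraries with the same replicate number correlated at -0.06, 0.20, 0.09 and 0.26 in their deviations from the group means, for control replicates 1 to 4. The best correlation of each control with a SAP97-cKO library of another number was 0.26, 0.10, 0.05 and -0.05. These values do not settle whether the numbers pair the mice, and the sources used here do not say. The main fit used no block. The replicate block moved the count over all genes from 48 to 256 and that of members to 1.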
